A study of Rattus norvegicus with 28 samples.

Results

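Grm4, Grm5 and Grm8 are metabotropic glutamate receptors, and they were followed here on a custom oligonucleotide array for genes of pain signalling. Every feature that the platform annotation assigns to these 3 genes was taken. These were feature 149 and feature 150 for Grm4, feature 151 for Grm5 and feature 90 for Grm8, so 4 of the 228 features on the array and 4 of the 202 features with a gene name. A feature was taken for its gene name, whatever its ratios, but the 3 genes were picked with earlier results of these data known.

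Metabotropic glutamate receptors are G protein-coupled receptors that tune glutamate synapses, in contrast to the ionotropic receptors, which are the ion channels that carry the fast current. Grm5 (mGluR5) belongs to group I, couples to Gq and phospholipase C, and lies mostly on the postsynaptic side, where it raises neuronal excitability. Grm4 and Grm8 (mGluR4 and mGluR8) belong to group III, couple to Gi/o, and lie mostly on presynaptic terminals, where they reduce transmitter release. The periaqueductal grey and the rostral ventromedial medulla form the descending pathway that sets how strongly the dorsal horn of the spinal cord passes on painful input, and receptors of both groups act in that pathway.

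The samples were 28 arrays of male rats, with an injected animal's RNA in 1 channel and RNA from the matching region of an uninjected rat in the other. Injected animals had received carrageenan, a seaweed polysaccharide that inflames tissue (0.25% in 0.9% saline, 1 µl/g), or saline alone. Both went into the hindpaw on the left side at postnatal day 3. Weaning was on day 21 and the rats were raised to day 59. The uninjected controls were otherwise treated alike. The groups were PAG (periaqueductal grey) carrageenan with 5 arrays, PAG saline with 5, RVM (rostral ventromedial medulla) carrageenan with 5, RVM saline with 4, and the LDH (lumbar dorsal horn) of carrageenan-injected animals with 5 arrays of the left, injected side and 4 of the right side. The amount of saline given to the saline groups is not in the labels.

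Each value is a log2 ratio of injected over uninjected RNA, so that a value below 0 means less signal in the injected animal. This direction is likely rather than stated, because the injected animal was channel 1 throughout while the deposited table names no direction. The dyes were never swapped, so a departure of a ratio from 0 by dye and one by injection cannot be told apart. A comparison between 2 injected groups carries the same dye order on both sides. The labels do not tie arrays to separate animals, and the spread that the p-values rest on may therefore be technical. In bulk tissue, fewer cells that express a gene and less RNA per cell cannot be told apart. The array holds 0 of the 4 neuronal, 0 of the 3 astrocyte, 0 of the 3 microglial and 0 of the 3 oligodendrocyte markers looked for, so the dissected tissue could not be checked against them.

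A ratio of exactly 0 was taken as not measured. On that basis 57 of the 112 possible values of the 4 features were measured (50.9%, against 44.1% over all features). Coverage was 18 of 20 values in PAG carrageenan, 10 of 20 in PAG saline, 4 of 20 in RVM carrageenan, 14 of 16 in RVM saline, 8 of 20 in left LDH and 3 of 16 in right LDH. Over all features the same 2 groups were the best covered and the same 2 the worst: 65.3% of values in PAG carrageenan, 35.4% in PAG saline, 30.6% in RVM carrageenan, 63.8% in RVM saline, 45.8% in left LDH and 23.8% in right LDH. Grm4 feature 149 was measured on 19 of the 28 arrays, Grm4 feature 150 on 15, Grm5 on 13 and Grm8 on 10. On 6 arrays all 4 features were measured, and on 5 arrays none was. Of the 57 ratios, 42 lay below 0 (73.7%, against 49.3% of all measured ratios on the arrays). Whether that share follows the injection or the fixed dye order cannot be told apart.

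**Figure D1:**
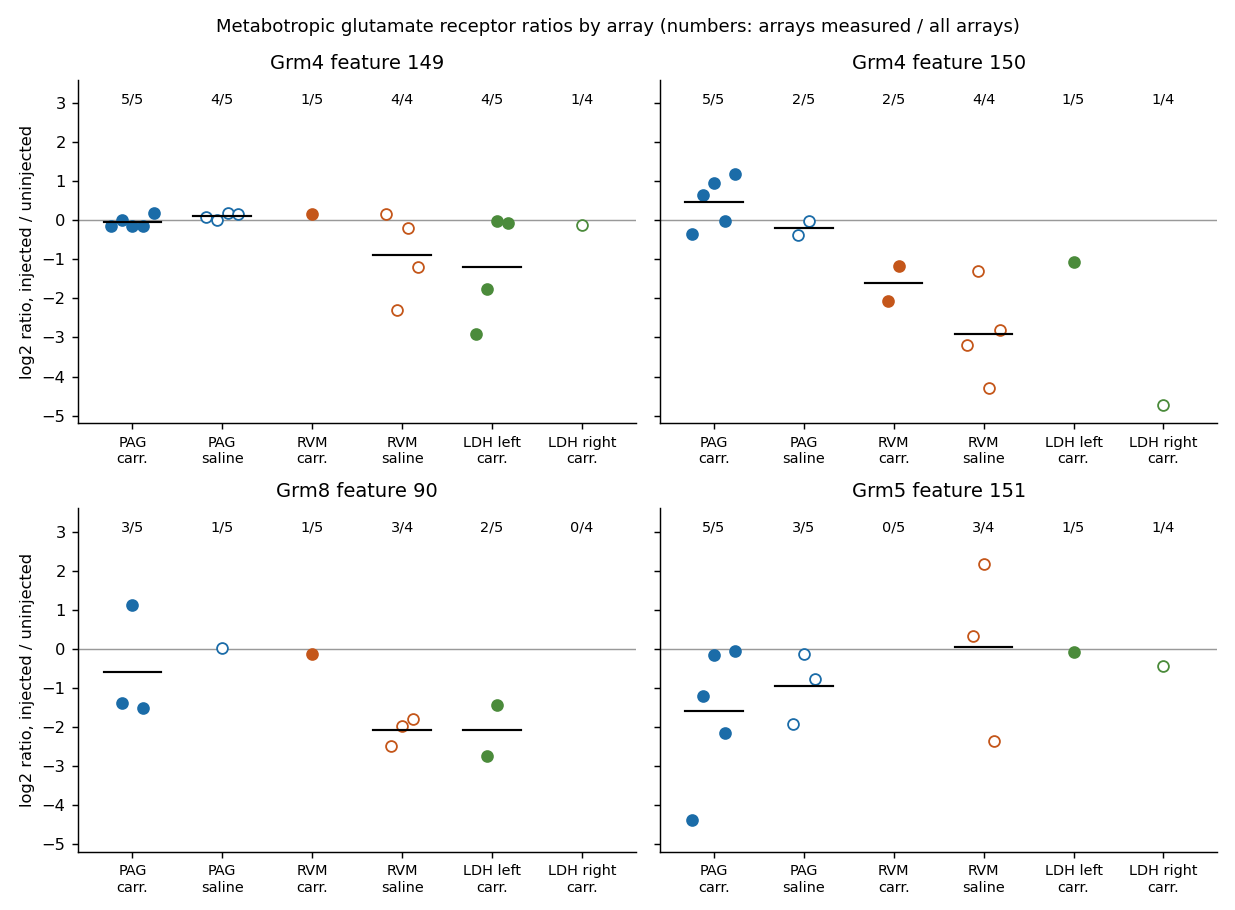
Log2 ratio of injected over uninjected RNA for the 4 features, 1 panel per feature, with 1 point per measured array and a bar at the mean of groups with at least 2 measured arrays. Numbers above each group give measured arrays over all arrays. Grm4 feature 150 lies below 0 on all 6 measured RVM arrays, and Grm5 on all 8 measured PAG arrays.

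Grm4 feature 150 was near 0 in PAG and low in RVM. In PAG carrageenan arrays 1 to 5 its log2 ratios were -0.36, 0.65, 0.95, -0.03 and 1.18 (0.48 ± 0.65, SD, n = 5). In PAG saline it was measured on array 3, at -0.38, and on array 4, at -0.01. In RVM carrageenan it was measured on array 3, at -2.06, and on array 5, at -1.16. All 4 RVM saline arrays measured it, at -3.20, -1.29, -4.31 and -2.80 (-2.90 ± 1.25, SD, n = 4). The lowest PAG value, -0.38, lay above the highest RVM value, -1.16, so the 7 PAG and 6 RVM arrays did not overlap. How many features of other genes also did not overlap between the regions was not counted. The PAG mean was 0.29 ± 0.63 (SD, n = 7), while the RVM mean of -2.47 ± 1.21 (SD, n = 6) corresponds to 5.54-fold less signal in injected than in uninjected animals, or 5.54-fold more if the ratio runs the other way.

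The difference between the regions was tested with the injections pooled, in a comparison chosen after these values were seen. The pooled groups held the injections in unequal shares, with 5 carrageenan and 2 saline arrays in PAG against 2 and 4 in RVM. The log2 ratio of feature 150 was 2.76 higher in PAG than in RVM (95% interval 1.67 to 3.84; limma adjusted p = 0.0146). It had the smallest p of the 126 features that could be tested and was the 1 feature called (0.794% of those tested). Across these 126 features the median difference was -0.05, and 5 had an unadjusted p below 0.05. With an exact two-sided permutation test of the array labels p was 0.00117, the smallest that 7 against 6 arrays allow. Permuted within each injection, the exact p was 0.00317 for a mean difference of 2.40, from 2.09 between the carrageenan groups and 2.70 between the saline groups. Leaving out any 1 of the 19 arrays gave differences of 2.39 to 3.02 with limma adjusted p of 0.00722 to 0.0494. Some of the 19 did not measure feature 150, and leaving those out could not change its difference. None of these p-values allows for the choice of the comparison after the values were seen.

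The call depends on how the arrays are combined. With all 6 groups in 1 fit, the same difference of 2.76 had a limma adjusted p of 0.0765. With exact zeros kept as measured ratios, the difference was 1.85 and the adjusted p was 0.424. Under the rule of at least 3 measured arrays per group, feature 150 entered none of the comparisons of PAG with RVM within an injection. With at least 2 measured arrays per group it did. Its difference was then 2.09 after carrageenan (95% interval 0.57 to 3.61; limma adjusted p = 0.291) and 2.70 after saline (95% interval 1.13 to 4.28; adjusted p = 0.118). In both comparisons 0 of 74 features were called (0%). The test of whether the regional difference itself depends on the injection gave -0.62 (95% interval -2.81 to 1.57; limma adjusted p = 0.842; 0% of 74 features called).

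Against uninjected animals, feature 150 was tested in each region separately. With at least 2 measured arrays per group, RVM saline arrays averaged 2.90 below 0 (95% interval -4.16 to -1.64; limma adjusted p = 0.0424), 1 of 4 calls among 98 features (4.08%). The mean of both RVM groups was -2.25 (95% interval -3.35 to -1.16; adjusted p = 0.0559; 2.04% called). Taken alone, the RVM saline arrays gave an adjusted p of 0.0754, with 0.787% of 127 features called. All 6 RVM arrays as 1 group gave -2.47 (95% interval -3.55 to -1.39; limma adjusted p = 0.0903), the second smallest p of 152 features, of which 0.658% were called. In PAG the pooled mean of 0.29 had an interval that spans 0 (-0.27 to 0.84; adjusted p = 0.475; 0.606% of 165 features called). With all 6 groups in 1 limma fit, the RVM saline arrays passed (adjusted p = 0.00366; 6 of 127 features called). RVM as a whole passed too (adjusted p = 0.0152; count over all features not given here). The call against uninjected animals thus depends on the setting while the sign does not.

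Within a region, carrageenan and saline did not separate for feature 150. In RVM the carrageenan mean was -1.61 ± 0.63 (SD, n = 2) and the saline mean -2.90 ± 1.25 (SD, n = 4), a difference of 1.29 (95% interval -0.89 to 3.48; limma adjusted p = 0.711; 1.02% of 98 features called). The carrageenan arrays lay inside the range of the saline arrays or above all of them. In PAG the carrageenan mean was 0.48 and the saline mean -0.19, a difference of 0.67 (95% interval -0.45 to 1.80; adjusted p = 0.463). These intervals include differences of more than 1 log2 unit in PAG and more than 3 in RVM.

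Taken over both injections, the arrays that measured feature 150 overlapped between the regions in coverage and spread, but the saline arrays did not. The PAG arrays held 86 to 181 measured features and the RVM arrays 72 to 195. The SD of all ratios on an array was 0.55 to 1.56 in PAG and 0.97 to 1.93 in RVM, and array medians ran from -0.02 to 0.08 in PAG and from -0.001 to 0.03 in RVM. Among the saline arrays, PAG arrays 3 and 4 held 94 and 95 measured features with SDs of 0.674 and 0.55. The RVM saline arrays held 100 to 195 with SDs of 1.332 to 1.915. Whether this unlike spread bears on the regional difference was not tested. Within its own array, feature 150 had 9.6% to 89.4% of the measured features below it in PAG and 1.4% to 18.5% below it in RVM. In LDH it was measured on 1 left array, at -1.06, and on 1 right array, at -4.72, where it was the second lowest of 100 measured features. With at least 2 measured arrays, the LDH mean of -2.89 (n = 2) had a 95% interval of -8.26 to 2.48 (limma adjusted p = 0.480).

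Grm4 feature 149, the other feature of the gene, was flat in PAG and uneven elsewhere. In PAG carrageenan arrays 1 to 5 its log2 ratios were -0.14, 0.02, -0.13, -0.14 and 0.18. In PAG saline arrays 1 to 4 they were 0.095, 0.004, 0.18 and 0.16. The PAG ratios stayed between -0.14 and 0.18 on all 9 arrays, with the smallest SD (0.14) of any of the 4 features in a region with at least 3 values. In RVM carrageenan 1 array measured it, at 0.17. The RVM saline arrays 1 to 4 had 0.15, -2.28, -0.20 and -1.19 (-0.88 ± 1.10, SD, n = 4).

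In left LDH, feature 149 was -2.90, -1.76, -0.02 and -0.07 on arrays 1, 2, 4 and 5 (-1.19 ± 1.40, SD, n = 4), and in right LDH array 4 had -0.12. All 5 LDH ratios were below 0, with 2 of them far below and 3 close to 0.

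Feature 149 was among the 78 features tested between carrageenan and saline in PAG, of which limma called 0 (0%; 10 had an unadjusted p below 0.05). Its mean was -0.04 ± 0.14 after carrageenan (SD, n = 5) and 0.11 ± 0.08 after saline (SD, n = 4), a difference of -0.15 (95% interval -0.42 to 0.12; limma adjusted p = 0.484; exact permutation p = 0.143). Against uninjected animals it did not pass in PAG carrageenan (-0.04, 95% interval -0.22 to 0.14; adjusted p = 0.770; 14.1% of 78 features called), in PAG saline (0.11, -0.09 to 0.31; adjusted p = 0.609; 0% called) or in the mean of both (0.03, -0.10 to 0.17; adjusted p = 0.703; 8.97% called).

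Between regions, feature 149 averaged 0.03 ± 0.14 in PAG (SD, n = 9) and -0.67 ± 1.06 in RVM (SD, n = 5). The difference of 0.70 had the same sign as that of feature 150 and did not pass (95% interval -0.05 to 1.44; limma adjusted p = 0.696; exact permutation p = 0.115). The ranges overlapped, because RVM carrageenan array 5 and RVM saline array 1 were as high as PAG. In the saline groups alone the difference was 0.99 (95% interval -0.21 to 2.19; limma adjusted p = 0.442; 0% of 72 features called). PAG carrageenan exceeded left LDH by 1.15 (95% interval -0.18 to 2.47; adjusted p = 0.601; 0% of 87 features called). In LDH, all 5 arrays together averaged -0.97 (95% interval -2.32 to 0.37; adjusted p = 0.464; 0% of 113 features called), and the left arrays alone averaged -1.19 (adjusted p = 0.521; 0% of 92 called).

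**Figure D2:**
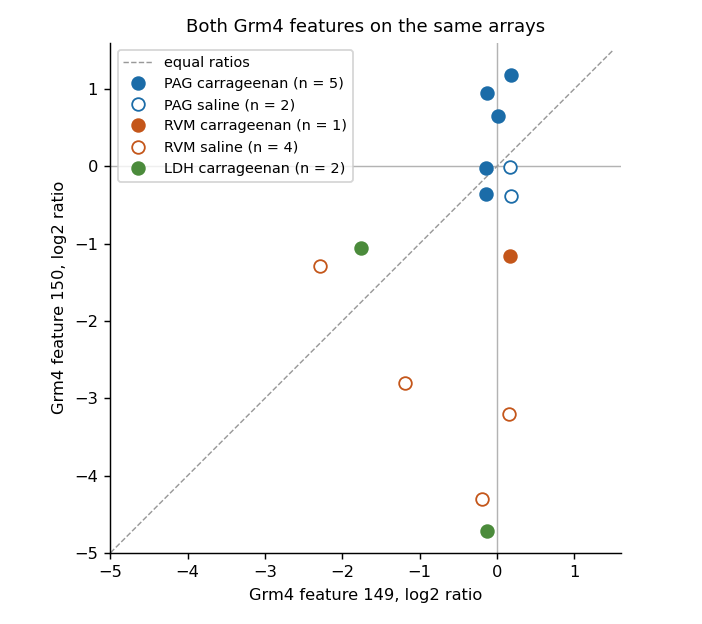
Log2 ratios of Grm4 feature 149 (x axis) and feature 150 (y axis) on the 14 arrays that measured both, 1 point per array, coloured by region with filled points for carrageenan and open points for saline. PAG arrays lie near 0 on the x axis, while 4 of the 5 RVM arrays lie below the dashed line of equal ratios.

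The 2 Grm4 features did not give the same picture on the same arrays. The platform annotation cites a different sequence record for each. On the 14 arrays that measured both, their ratios had the same sign on 9 (Pearson r = 0.15 and Spearman rho = 0.38, given as a description over arrays that share regions). In PAG feature 150 exceeded feature 149 by 0.27 ± 0.64 (SD, n = 7 arrays, 3 of them below 0; exact sign-flip p = 0.312). In RVM feature 150 lay below feature 149 on 4 of 5 arrays, with a mean difference of -1.88 ± 1.99 (SD, n = 5; exact sign-flip p = 0.125, where 0.0625 is the smallest possible). RVM saline arrays 1 and 3 show the gap most plainly, with -3.20 and -4.31 for feature 150 and 0.15 and -0.20 for feature 149. RVM saline array 2 goes the other way, at -1.29 for feature 150 and -2.28 for feature 149. Which of the 2 better follows Grm4 mRNA cannot be read from the ratios, and the regional difference above is that of feature 150 alone.

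Grm8, the other group III receptor, was measured on fewer arrays. In PAG carrageenan it was -1.39, 1.11 and -1.52 on arrays 1, 4 and 5, and on PAG saline array 1 it was 0.005. RVM carrageenan array 3 had -0.14. RVM saline arrays 2, 3 and 4 had -2.48, -1.98 and -1.80 (-2.09 ± 0.35, SD, n = 3), which lie closer together than the 3 values of PAG carrageenan. Left LDH arrays 1 and 2 had -2.75 and -1.43, and no right LDH array measured it. The RVM saline mean corresponds to 4.25-fold less signal in injected than in uninjected animals, or 4.25-fold more if the ratio runs the other way.

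That mean had the third smallest p of the 127 features tested in RVM saline arrays alone and missed the threshold (95% interval -2.79 to -1.39; limma unadjusted p = 0.0020, adjusted p = 0.0654). The pooled PAG mean was -0.45 ± 1.25 (SD, n = 4; limma adjusted p = 0.611), with 2 arrays above 0 and 2 below. The 4 RVM arrays averaged -1.60 ± 1.02 (SD; adjusted p = 0.252), and all 4 lay below 0. The PAG minus RVM difference of 1.15 did not pass (95% interval -0.57 to 2.88; limma adjusted p = 0.696; exact permutation p = 0.171). Carrageenan and saline could not be compared for Grm8, since PAG saline and RVM carrageenan had 1 measured array each and LDH has no saline group. On the 3 RVM saline arrays that measured Grm8, feature 150 of Grm4 lay between -4.31 and -1.29, and feature 149 was below 0 too.

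**Figure D3:**
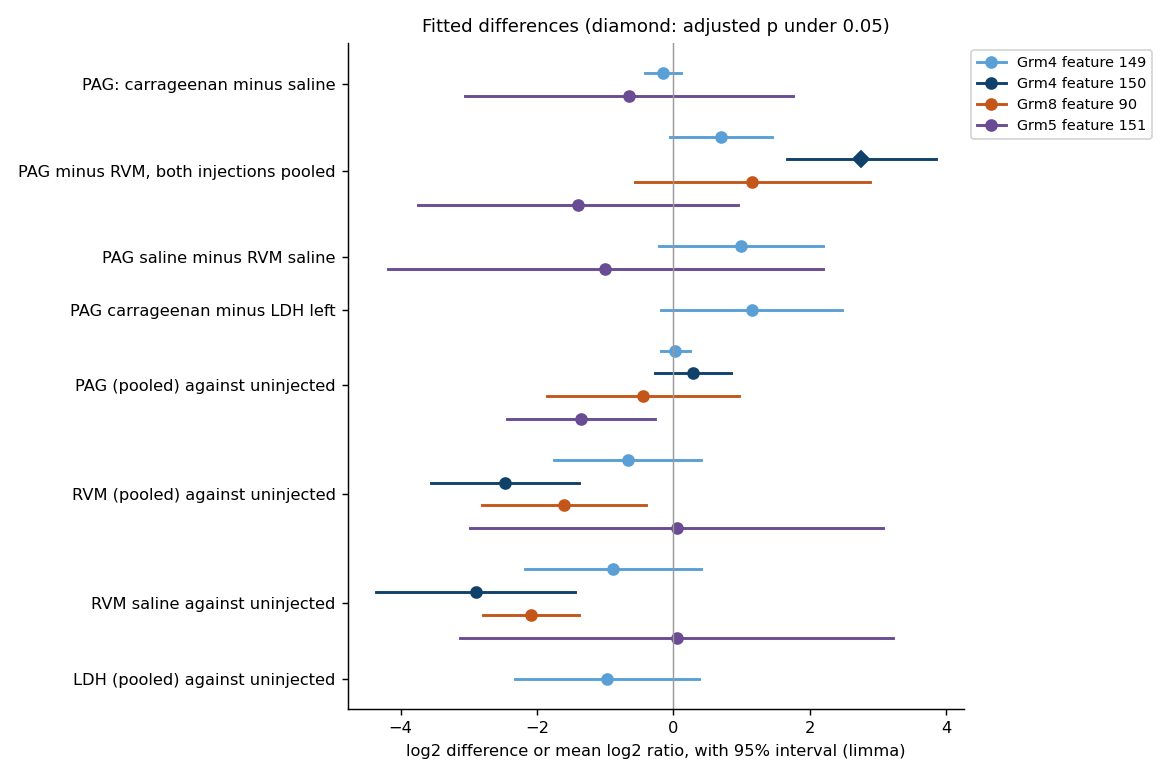
Mean log2 ratios against uninjected animals and differences between groups for the 4 features, as fitted with limma, with 95% intervals. Circles did not pass an adjusted p of 0.05 and the diamond did, for Grm4 feature 150 between PAG and RVM (2.76), and a feature is missing where too few arrays measured it.

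Grm5, the group I receptor, was below 0 on every PAG array that measured it. In PAG carrageenan arrays 1 to 5 its log2 ratios were -4.39, -1.21, -0.16, -2.15 and -0.06 (-1.59 ± 1.78, SD, n = 5). In PAG saline arrays 2, 3 and 5 they were -1.94, -0.13 and -0.78 (-0.95 ± 0.91, SD, n = 3). The groups overlapped, and each held an array near 0 as well as one at -1.94 or lower. The pooled PAG mean was -1.35 ± 1.47 (SD, n = 8).

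Against uninjected animals Grm5 did not pass after adjustment. Its mean in PAG carrageenan had a 95% interval of -3.07 to -0.12 (limma unadjusted p = 0.0374, adjusted p = 0.121, in the comparison with 14.1% of features called). The mean of both PAG groups was -1.27 (95% interval -2.47 to -0.07; adjusted p = 0.145), and PAG saline alone did not reach an unadjusted p of 0.05 (-0.95, interval -2.85 to 0.95; adjusted p = 0.659). With all PAG arrays as 1 group the mean of -1.35 had an interval of -2.44 to -0.26 (limma adjusted p = 0.154), and without PAG carrageenan array 1 it was -0.92.

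Between carrageenan and saline in PAG, Grm5 differed by -0.65 (95% interval -3.05 to 1.76; limma adjusted p = 0.831; exact permutation p = 0.643). That sign rests on PAG carrageenan array 1, without which the difference was 0.05. The interval leaves room for a change of several fold in either direction.

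In the other regions Grm5 was scattered. No RVM carrageenan array measured it, and RVM saline arrays 2, 3 and 4 had 0.32, 2.18 and -2.36 (0.05 ± 2.28, SD, n = 3). Left LDH array 3 had -0.08 and right LDH array 2 had -0.44. The PAG minus RVM difference was -1.40 (95% interval -3.74 to 0.94; limma adjusted p = 0.730), the opposite sign to Grm4 and Grm8 and within the spread of the arrays. RVM saline array 4, with the lowest Grm5 value in RVM, also had Grm8 at -1.80 and Grm4 feature 150 at -2.80.

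Ordered by the mean log2 ratio against uninjected animals, feature 150 of Grm4 was highest in PAG (0.29), then in RVM (-2.47) and LDH (-2.89, n = 2), whose ranges overlap. Feature 149 ran in the same order, with PAG at 0.03, RVM at -0.67 and LDH at -0.97, and neighbouring regions overlapped. Grm8 was -0.45 in PAG, -1.60 in RVM and -2.09 in LDH (n = 2), again with overlap between neighbours. Grm5 ran the other way, with PAG at -1.35, LDH at -0.26 (n = 2) and RVM at 0.05, and all 3 regions overlapped. If the ratio runs the other way, each of these orders is reversed. The regions held the injections in unequal shares, and LDH had carrageenan only, so region and injection are mixed in these orders. In RVM, the 1 carrageenan array that measured feature 149 was at 0.17 and the 1 that measured Grm8 at -0.14. Both values lay above the PAG means. Ratios say how injected and uninjected RNA compare within a region, not how strongly a region expresses the gene.

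Of the 15 comparisons laid out for the 6 groups, 4 could test a member and 11 could not, among them left against right LDH and carrageenan against saline in RVM. In the 4, all in PAG, 2 of the 4 features entered (Grm4 feature 149 and Grm5) and 0 were called with limma. Of all 78 features, 0% were called between carrageenan and saline and 0% in saline against uninjected. The share was 14.1% in carrageenan against uninjected and 8.97% in the mean of both groups. Grm5 had an unadjusted limma p below 0.05 in 2 of the 4 comparisons, carrageenan against uninjected and the mean of both groups. Feature 149 had the smaller p of the 2 features in carrageenan minus saline (0.229 against 0.548) and in saline against uninjected (0.239 against 0.279).

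**Figure D4:**
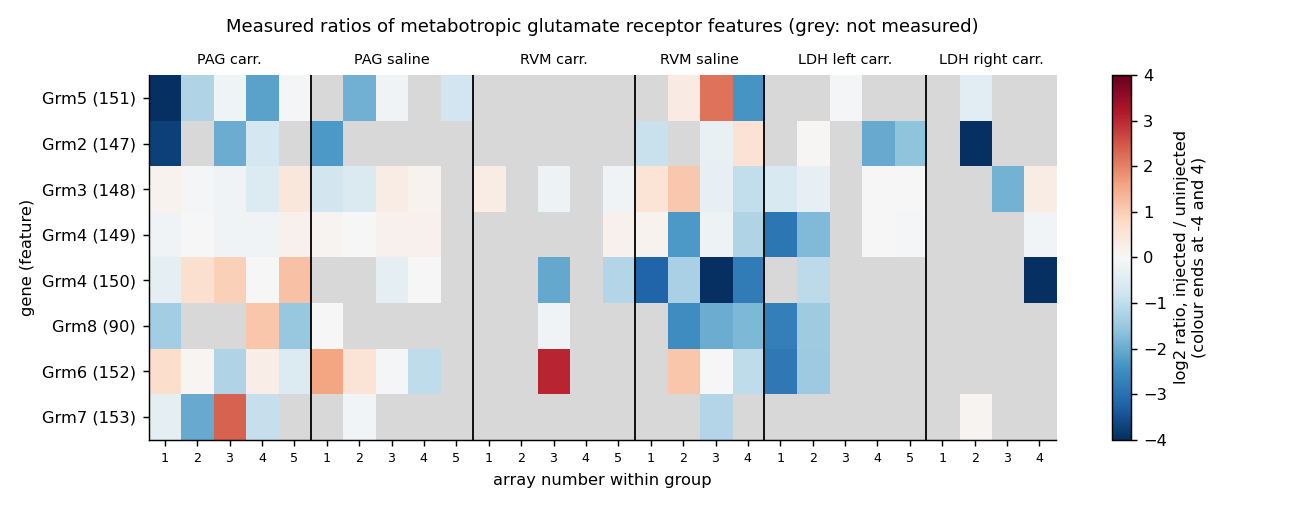
Log2 ratio (colour, with the scale ending at -4 and 4) of the 8 metabotropic glutamate receptor features on each of the 28 arrays, with grey for values not measured and lines between the groups. RVM carrageenan and right LDH are mostly grey, and the blue run of Grm4 feature 150 in RVM saline covers all 4 arrays.

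The other metabotropic receptors on the array were Grm2 and Grm3 of group II and Grm6 and Grm7 of group III, with 1 feature each, so 4 of the 5 other genes looked for. None of the 4 features was called in any comparison in which it was tested. Grm3, which reduces transmitter release and is also found on astrocytes, was measured on 22 arrays and averaged -0.02 ± 0.37 in PAG carrageenan (SD, n = 5), -0.23 ± 0.52 in PAG saline (n = 4), -0.02 ± 0.28 in RVM carrageenan (n = 3) and 0.07 ± 0.92 in RVM saline (n = 4). Its carrageenan minus saline difference in PAG was 0.20 (limma adjusted p = 0.795). Grm2, a presynaptic receptor that reduces glutamate release, was below 0 on all 4 PAG arrays that measured it (-2.19 ± 1.25, SD; limma adjusted p = 0.116) and averaged -0.20 ± 0.75 in RVM saline (n = 3). Its PAG minus RVM difference of -1.98 (limma unadjusted p = 0.0347, adjusted p = 0.696) had the sign opposite to that of Grm4 feature 150. Grm6, best known from the ON bipolar cells of the retina, averaged -0.14 ± 0.74 in PAG carrageenan (n = 5) and 0.26 ± 1.08 in PAG saline (n = 4). In left LDH it was measured on the same 2 arrays as Grm8, at a mean of -2.16 ± 1.01. Grm7 was measured on 7 arrays, with -0.23 ± 1.86 in PAG carrageenan (n = 4).

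Ionotropic glutamate receptors, the channels that act beside these receptors, had 23 features of 15 of the 18 genes looked for. Between carrageenan and saline in PAG, 7 were tested and 0 called, with 4 above and 3 below 0 (median 0.05, against 0.14 over all 78 features). In the PAG minus RVM comparison that called Grm4 feature 150, 13 were tested and 0 called (median -0.07, against -0.05 over all 126). Features said to fall or rise were called with a mean ratio below or above 0, and dye and injection cannot be told apart there. Against uninjected animals 2 of 7 fell in PAG carrageenan and 0 rose, where 11 of all 78 features were called (14.1%, 7 up and 4 down). These were the kainate receptor subunit Grik3 feature 88, at -4.99 ± 3.23 (SD, n = 5; limma adjusted p = 0.0224), and the NMDA receptor subunit Grin2d feature 167, at -0.99 ± 0.50 (n = 5; adjusted p = 0.0224). Grik3 also has feature 89 and Grin2d feature 171, and neither was called in the main fit of any comparison that tested it. In the mean of both PAG groups 3 of 7 fell, with Grin2b feature 169 (-0.35; adjusted p = 0.0149) as the third, where 7 of all 78 were called (8.97%, 3 up and 4 down). In RVM carrageenan 1 of 7 fell, Grik3 feature 88 at -4.06 ± 1.14 (n = 3; limma adjusted p = 0.0134), with 4 above and 3 below 0 (1 of all 56 features called, 1.79%). In RVM saline the same feature fell, at -2.57 ± 0.92 (n = 4; limma adjusted p = 0.0373), and all 7 lay below 0, against 21 of all 56 features (3 of 56 called, 5.36%). The RVM saline arrays taken alone called Grin3a feature 180, an NMDA receptor subunit, with a mean of -4.37 ± 0.75 (n = 4; adjusted p = 0.0178). All RVM arrays as 1 group called Grik3 feature 88 (-3.21; adjusted p = 0.0149). Its mean was below 0 in the remaining groups too, without a call. It was -2.11 ± 2.20 in PAG saline (n = 5), -3.50 ± 2.85 in left LDH (n = 5) and -2.56 ± 1.64 in right LDH (n = 3).

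Receptors with the same coupling were set beside the members. Gi-coupled transmitter receptors, which share the coupling of Grm4 and Grm8, had 28 features of 16 of 21 genes. Of these, 19 were tested between PAG and RVM with 0 called (median -0.05). In RVM saline against uninjected, where 5.36% of features were called, 10 were tested, 8 lay above 0 (median 0.31, against 0.19 over all 56 features) and 1 fell. That 1 was Gabbr1 feature 76, a subunit of the GABA-B receptor, at -1.08 ± 0.50 (n = 4; limma adjusted p = 0.0373). It also fell in PAG carrageenan (-1.58 ± 0.83, n = 5; adjusted p = 0.0224) and in the mean of both RVM groups (-0.67; adjusted p = 0.0353), where the histamine receptor Hrh3 feature 95 rose (0.31; adjusted p = 0.0479) and 4 of all 56 features were called (7.14%). Gabbr1 has further features on the array, and none of them was called in the main fit of any comparison that tested it. The delta opioid receptor Oprd1 feature 54 fell in the PAG carrageenan arrays taken alone (-2.32 ± 0.64, n = 5; adjusted p = 0.0379). It was also the 1 call among 165 features in PAG as 1 group (adjusted p = 0.0414), on the same 5 arrays, because 0 PAG saline arrays measured it.

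Gq-coupled transmitter receptors, which share the coupling of Grm5, had 11 features of 10 of 15 genes. In PAG carrageenan against uninjected 6 were tested, 1 rose and 5 lay above 0 (median 0.73, against 0.19 over all 78 features), while Grm5 was at -1.59. Over all 78 features 14.1% were called and 53 lay above 0. The one that rose was the neurotensin receptor Ntsr1 feature 158, at 1.26 ± 1.18 (n = 5; limma adjusted p = 0.0490). Between PAG and RVM 7 were tested and 0 called (median 0.01). Of 9 glutamate transporter genes 2 were on the array, with 1 feature tested and 0 calls, and of 16 scaffold and signalling partners such as the Homer proteins 0 were. The serotonin transporter gene Slc6a4, a marker of serotonergic neurons, had a mean log2 ratio of 0.88 after carrageenan and 0.48 after saline in PAG, and was called against uninjected animals after carrageenan and in the mean of both groups (0.68). Its part in the Grm5 ratios of PAG was not tested.

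Across arrays, the features whose ratios ran most like the members were named by Pearson correlation over at least 12 shared arrays, as a description over arrays that share regions and dyes. For Grm4 feature 149 these were Polr2m feature 91 (r = 0.70, rho = 0.82, 16 arrays), the GABA receptor subunit Gabrr1 feature 57 (r = 0.70, rho = 0.40, 18 arrays) and Grik3 feature 89 (r = 0.54, rho = 0.42, 13 arrays), out of 78 features compared. For Grm4 feature 150 they were the somatostatin receptor Sstr1 feature 212 (r = 0.61, rho = 0.54, 12 arrays), the adenosine receptor Adora2a feature 23 (r = 0.60, rho = 0.50, 12 arrays) and Grin2d feature 171 (r = 0.56, rho = 0.45, 15 arrays), out of 63. For Grm5 they were the serotonin receptor Htr5a feature 18 (r = 0.68, rho = 0.41, 12 arrays), Gabbr1 feature 36 (r = 0.54, rho = 0.22, 12 arrays) and the interleukin receptor Il10ra feature 102 (r = 0.46, rho = 0.28, 13 arrays), out of 31. Grm8 shared too few arrays with any feature. The 3 lists share no feature.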

How the data were processed

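The values are the log2 ratios deposited by the authors, 1 for each feature on each array. Per the labels, channel 1 was the injected animal and channel 2 the uninjected control, with the same Alexa dyes throughout. Scanning, background correction, filtering and normalization are not given in the sources used here, and the base of 2 was inferred from the range of the values (-13.245 to 10.459). An exact 0 (3566 of 6384 values, 55.9%) was treated as unmeasured. Features were named from the platform annotation, which names no genome build.

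Each comparison was fitted over all features with limma (version 3.58.1, R 4.3.3; lmFit, eBayes, two-sided, no covariates) for features with a minimum of 3 measured arrays in every group fitted. Benjamini-Hochberg adjustment ran over all features tested, with a threshold of 0.05 and 95% intervals. The fits were run on simulated ratios with the same spread for every feature and array. The real arrays had SDs from 0.55 to 2.364, so that run tests the code and not how the fits behave on these data. Single features were also tested by exact two-sided permutation of array labels. Replicate numbers were not shown to pair the arrays: same-number correlations of deviations ran from -0.258 to 0.453 within PAG, -0.058 to 0.236 within RVM, -0.206 to 0.216 within LDH, and between PAG and RVM from -0.032 to 0.282 after carrageenan and -0.072 to 0.265 after saline.

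The members, lists and rule for named genes (every member feature, its 3 most correlated features, and each listed feature that passed) were chosen with earlier results of these data known. Fits of a group alone, of regions pooled, of 2 groups only and without arrays under 40 measured features were added after seeing the values.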

Additional observations from a re-analysis of the deposited data

Results flagged for a closer look

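Grm4 feature 150 differed between the regions in its ratio of injected to uninjected animals, with the injections pooled in unequal shares. Its log2 ratio averaged 0.29 ± 0.63 in PAG (SD, n = 7) and -2.47 ± 1.21 in RVM (SD, n = 6), a difference of 2.76 (limma adjusted p = 0.0146), and 1 of 126 features was called (0.794%). The arrays of the 2 regions did not overlap, but how many features of other genes also did not was not counted. The comparison was chosen after the values were seen. Over all alternatives tried its adjusted p ran from 0.00722 to 0.424. It set 5 carrageenan and 2 saline arrays of PAG against 2 carrageenan and 4 saline arrays of RVM. Averaged within each injection, the difference of feature 150 was 2.40 (exact permutation p = 0.00317). The other feature of the gene, 149, differed by 0.70 in the same direction and did not pass. In 7 groups of 4 or 5 measured ratios of the members, 0 arrays stood apart from the rest of their group by Dixon's test.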

How the results depend on the processing

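Values of the 4 features were recomputed under alternatives (median centring, quantile normalization, zeros kept, at least 2 measured arrays, all groups in 1 fit, robust variance, the replicate block, arrays left out). Of those that the main fit had also tested, 510 kept their sign and their side of the threshold, 5 turned sign, 5 passed newly and 2 no longer passed. Calls below with zeros kept or with at least 2 measured arrays concern features that the main fit could not test, and lie outside this tally. Quantile normalization turned Grm5 in PAG carrageenan minus saline from -0.65 to 0.024, Grm5 in RVM as 1 group from 0.05 to -0.0019 and Grm4 feature 149 in PAG carrageenan alone from -0.04 to 0.000784. The Grm5 carrageenan minus saline difference in PAG was 0.47 with the replicate block and ran from -1.03 to 0.053 with 1 array left out, the highest without PAG carrageenan array 1. As the replicate numbers were not shown to pair the arrays, the block is given here only. With it 1 member, Grm5, was called in PAG carrageenan against uninjected (limma adjusted p = 0.0189; 4 of all 65 features called). It was also called in the mean of both PAG groups (adjusted p = 0.0111; 7 of 65 called) and in PAG as 1 group (adjusted p = 0.0213). The limma fits without the block called 0 members there. With zeros kept, 1 member, Grm4 feature 150, was called in PAG minus RVM after saline (limma adjusted p = 0.00503; 4 of all 228 features called) and in PAG saline minus RVM saline alone (adjusted p = 0.0486). In the fit of both RVM groups, feature 150 was also called in RVM saline (adjusted p = 0.0230; 8 of 228 called) and in the mean of both RVM groups (adjusted p = 0.0352; 7 of 228 called). In the RVM saline arrays taken alone it was not called (limma adjusted p = 0.338; 0 of 228 called). In PAG minus RVM pooled 0 members were called. With all groups in 1 limma fit, 0 were called in PAG minus RVM pooled and 1, feature 150, in RVM as 1 group and in RVM saline alone (6 of all 127 features called in the latter). With at least 2 measured arrays, 1, feature 150, was called in RVM saline in the fit of both RVM groups (4 of all 98 features called, 4.08%). In the RVM saline arrays taken alone its limma adjusted p was then 0.104. The cause was not tested. Counts over all features are not given here for PAG as 1 group with the block or for RVM as 1 group in the joint fit. Nor are they given for PAG saline minus RVM saline alone with zeros kept. Limits are the 55.9% of values at 0, the unknown steps before the deposited ratios, the fixed dyes and the 2 to 7 arrays behind most means.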

Other observations

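The lowest ratio of the whole table belonged to another receptor of the family: Grm2 on right LDH array 2 was -13.2, the one right LDH array that measured it, while the 3 left LDH arrays with a value averaged -1.19 ± 1.10 (SD).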
